A study of Homo sapiens with 6 samples.

Results

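TXNIP and the glucose-sensing transcription factor module around it, made up of TXNIP, ARRDC4, MLX, MLXIP and MLXIPL, were examined after CPT2 knockdown in cells labelled HCT116, a human colorectal carcinoma cell line. The 5 genes were taken by symbol from the 24154 genes of the deposited table, and each matched 1 gene. TXNIP was chosen by its own values in this contrast, since all 3 knockdown libraries lay below all 3 control libraries, so its difference between the groups is described here without a test. The other 4 were named for their place in the pathway. The groups were cells collected 48 h after an siRNA against CPT2 (CPT2 knockdown, n = 3) and cells collected 48 h after a negative control siRNA (NC, n = 3), and mRNA was measured by poly(A) RNA-seq. All libraries came from 1 cell line, and the labels name no second siRNA and no rescue. The labels do not say whether replicates were separate cultures, and the spread behind the p-values may therefore be technical.

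MLXIP encodes MondoA and MLXIPL encodes ChREBP, a pair of basic helix-loop-helix leucine zipper factors that bind DNA as dimers with MLX. Both respond to glucose 6-phosphate and activate genes that carry a carbohydrate response element, a tandem of E-boxes or E-box-like motifs with a short spacer. TXNIP is the best known target of MondoA. It encodes an alpha-arrestin that binds thioredoxin and restrains glucose uptake by promoting internalisation of the glucose transporter GLUT1, and ARRDC4 encodes a close relative with a like effect on glucose uptake.

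The RefSeq promoter windows of TXNIP and ARRDC4 are shown because these were the only members whose knockdown libraries all lay below all NC libraries. TXNIP was so by the choice of the gene, and 12.2% of all genes tested were separated in this way. Each window holds the 250 bases before the transcript start (GRCh38.p14). The TXNIP window lies on the minus strand at chr1:145996580-145996829 and the ARRDC4 window on the plus strand at chr15:97960453-97960702. Capitals mark matches to CACGTG (the E-box), to CACGAG and to the tandem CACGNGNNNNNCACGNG, and to CCAAT, the core bound by NF-Y, each searched on both strands.
TXNIP: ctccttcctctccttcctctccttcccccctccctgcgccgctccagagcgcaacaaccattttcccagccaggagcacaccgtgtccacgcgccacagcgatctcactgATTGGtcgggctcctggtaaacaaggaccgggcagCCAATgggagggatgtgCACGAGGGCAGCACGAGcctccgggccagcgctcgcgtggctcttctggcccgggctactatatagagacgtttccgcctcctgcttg
ARRDC4: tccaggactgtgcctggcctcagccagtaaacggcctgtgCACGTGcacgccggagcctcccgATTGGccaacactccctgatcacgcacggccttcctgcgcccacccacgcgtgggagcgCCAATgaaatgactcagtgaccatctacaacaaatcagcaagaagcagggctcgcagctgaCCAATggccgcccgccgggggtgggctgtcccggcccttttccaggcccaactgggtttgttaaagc
The TXNIP window held the tandem, made of 2 CACGAG motifs, at positions -88 to -72 relative to the start, and CCAAT matches began at -140 and -105. Of 35116 RefSeq windows of the same length, 16 (0.0456%) held the tandem, 5.58% held CACGAG and 32% held CCAAT on either strand. The tandem overlaps its own CACGAG motifs, so these are not separate matches. The ARRDC4 window held 1 CACGTG, beginning at -210, and 3 CCAAT matches, but no tandem. The tandem was searched only as written above, with that spacer and no other bases in its motifs. Other forms of the carbohydrate response element were not searched in any window. CACGTG was present in 6.34% of all windows. Among the partners, the MLX window held 1 CACGTG and 1 CCAAT, the MLXIP window held 1 CCAAT, and the MLXIPL window held none of these motifs. A further RefSeq start of TXNIP lies inside the gene, and its window held none of them.

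**Figure D1:**
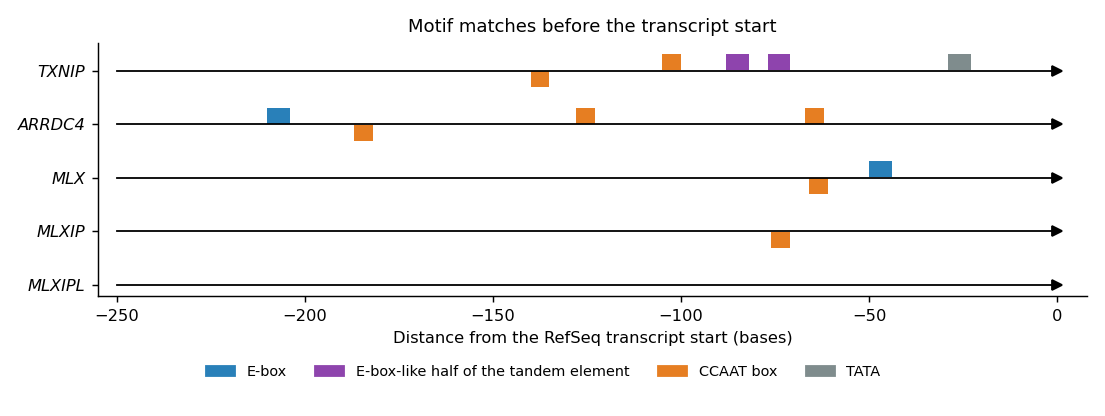
Positions of motif matches in the 250 bases before the RefSeq transcript start of each gene (x axis, distance in bases; the arrowhead is the start). Blocks above a line are matches on the gene's strand and blocks below it on the other strand. The tandem of E-box-like motifs appears in the TXNIP row, at -88 to -72.

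Total counts were 28353790 to 29293979 in the knockdown libraries and 29124808 to 29449380 in the NC libraries. CPT2, the gene targeted by the siRNA, had 19.4, 21.3 and 18.96 CPM (counts scaled to library size) in knockdown replicates 1 to 3, against 23.6, 28.5 and 29.1 CPM in NC replicates 1 to 3. The groups did not overlap, and edgeR's quasi-likelihood test gave a log2 fold change of -0.44 (SE 0.17) that did not pass over all genes (Benjamini-Hochberg adjusted p = 0.338). All knockdown libraries lay below all NC libraries in 12.2% of the genes tested. The unadjusted edgeR p of CPT2 was 0.0281, and 5.29% of all genes were lower with one under 0.05. With offsets for transcript GC content and length, the log2 fold change of CPT2 was -0.02 (SE 0.19). With the trend of each library removed, CPT2 lay 0.35, -0.29 and -0.20 on the log2 scale from the NC mean in knockdown replicates 1 to 3, against -0.09, -0.07 and 0.16 in NC replicates 1 to 3, so that knockdown replicate 1 was the highest. The authors' deposited table lists CPT2 at -0.44 with p = 0.0118, unadjusted, and calls it normal. Exon bases of C1orf123 on the other strand overlap CPT2. Fold changes across the transcriptome tracked transcript GC content. The 1321 most GC-rich of 13207 genes had log2 medians of 0.81, 0.09 and 0.44 against the NC mean in knockdown replicates 1 to 3. In NC replicates 1 to 3 these medians were 0.05, -0.17 and 0.12, so knockdown replicate 2 lay within the NC range. Knockdown replicate 1 also stood apart on the first principal component, with a score of 76.6, against -44.6 to 16.03 in the other libraries. The mitochondrial share of counts was 17.0%, 15.6% and 8.99% in knockdown replicates 1 to 3, against 10.5%, 10.8% and 10.002% in NC replicates 1 to 3. Of 9 epithelial markers, 3 had a mean above 1 FPKM (fragments scaled to transcript length and library size). These were KRT8 at 565, KRT18 at 499 and EPCAM at 1.88 FPKM. CDX1 and CDX2, which mark intestinal epithelium, had no counts, and CDH1, KRT19, KRT20 and VIL1 had 0.408, 0.343, 0.023 and 0.0030 FPKM. KRT8 and KRT18 were thus high, as in epithelial cells. The low levels of the other listed epithelial and intestinal genes go against the labelled colorectal origin. The identity of the line was not tested. Of 5 fibroblast markers, COL1A1 alone exceeded a mean of 1 FPKM, at 13.0, and no immune marker did. The endothelial cadherin CDH5 had 20.9 FPKM, and the summed FPKM of the 3 endothelial markers was 12.5 to 20.5 in knockdown libraries and 22.2 to 27.9 in NC libraries. The part of the mitochondrial share and of these markers in the results was not tested, and values with offsets for GC content and length are given for CPT2, the 5 genes and the medians of gene lists alone.

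On a scale per transcript length, TXNIP was the most abundant of the 5 transcripts and ARRDC4 the least. TXNIP averaged 39.6 ± 8.30 FPKM in knockdown libraries and 58.7 ± 2.73 FPKM in NC libraries (SD, n = 3 each), and its mean over all 6 libraries exceeded that of 91.4% of the 15302 genes tested. MLX averaged 22.98 ± 3.18 FPKM in knockdown libraries and 21.2 ± 0.98 FPKM in NC libraries. MLXIPL averaged 13.7 ± 5.20 and MLXIP 10.7 ± 1.67 FPKM in knockdown libraries, against 11.3 ± 1.54 and 9.998 ± 0.827 FPKM in NC libraries. ARRDC4 averaged 0.794 ± 0.25 FPKM in knockdown libraries and 1.47 ± 0.193 FPKM in NC libraries. Within a library, the ratio of MLXIPL to MLXIP was 1.03 to 1.56 in knockdown libraries and 1.06 to 1.25 in NC libraries. The FPKM of MLXIPL, whose best studied site is liver, thus lay above that of MLXIP in each library, although the ranges of both genes overlapped. Whether the counts came from the long or the short ChREBP isoform is not resolved by a gene-level table.

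TXNIP was lower in each knockdown library than in any NC library, by the choice of the gene. It had 107, 140 and 132 CPM in knockdown replicates 1, 2 and 3, against 168, 175.0 and 175.1 CPM in NC replicates 1, 2 and 3. The raw counts were 2699, 3929 and 3859 in the knockdown libraries, against 5035, 5400 and 5488 in the NC libraries. The highest knockdown value of 140 CPM and the lowest NC value of 168 CPM bound the gap between the groups. The NC libraries lay close together, with an SD of 4.22 CPM around a mean of 172.6 CPM, whereas the knockdown libraries had an SD of 17.5 CPM around 126 CPM, with replicate 1 the lowest. Knockdown over NC, this was -0.45 on the log2 scale (SE 0.15), a fold of 0.732. All knockdown libraries lay below all NC libraries in 12.2% of the genes tested (and above them in another 12.2%), so such a separation was common. Fewer cells with the transcript and less of it per cell cannot be told apart in bulk RNA. The gene TXNIP (ENSG00000265972) is protein-coding, spans 145992435 to 145996600 of chromosome 1 on the minus strand (GRCh38, GENCODE 29), and shares exon bases with no other annotated gene.

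ARRDC4, the other arrestin gene of the module, was also lower in each knockdown library than in any NC library, by a larger fold and from far fewer reads. It had 2.69, 4.49 and 3.46 CPM in knockdown replicates 1, 2 and 3, against 5.26, 6.51 and 6.35 CPM in NC replicates 1, 2 and 3. These values rest on 68, 126 and 101 reads in the knockdown libraries, against 158, 201 and 199 reads in the NC libraries. The groups did not overlap, and knockdown replicate 1 was again the lowest. Knockdown libraries lay below NC libraries in this way in 12.2% of the genes tested. By edgeR, ARRDC4 stood at -0.77 on the log2 scale (SE 0.25, 95% interval -1.33 to -0.20), a fold of 0.588, which did not pass over all genes (adjusted p = 0.338). Its unadjusted edgeR p was 0.0135, and 5.29% of all genes were lower with an unadjusted p under 0.05, while 9.18% were higher with one. Of all genes tested, 2.78% had a log2 fold change as low or lower. The authors' deposited table lists ARRDC4 at -0.77 on the log2 scale with p = 0.00542, unadjusted, and calls it down, as it does 1.38% of the genes with a p-value there. The authors' deposited table lists TXNIP at -0.45 and calls it normal. Per the file header these calls combine a p-value cut with a fold cut, so a call of normal does not speak to the p-value alone. The gene ARRDC4 (ENSG00000140450) spans 97960698 to 97973838 of chromosome 15 on the plus strand and shares exon bases with no other annotated gene.

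**Figure D2:**
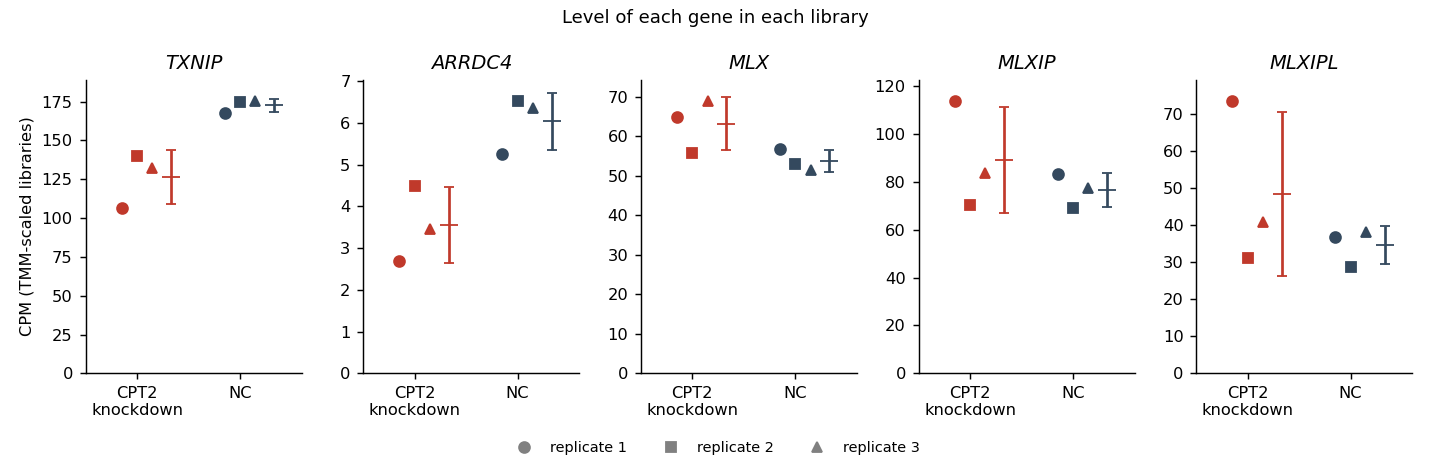
CPM of each gene (y axis, from 0, own scale per panel) in the 3 CPT2 knockdown and 3 NC libraries. Points are libraries, with a shape per replicate number, and bars give the mean ± SD. TXNIP and ARRDC4 are lower in every knockdown library, whereas the groups overlap for MLX, MLXIP and MLXIPL.

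The transcripts of MLX, MLXIP and MLXIPL, the factors that act upstream of TXNIP and ARRDC4, overlapped between the groups, and none passed the test. Among the 4 members named by pathway, edgeR called 0 at an adjusted p of 0.05, against 0.0131% of all genes tested, and 1 had an unadjusted p under 0.05, against 14.5% of all genes. DESeq2 called 0 of them, against 0.111% of all genes, and limma-voom 0, against 0.00654%. MLX had 64.9, 55.8 and 68.8 CPM in knockdown replicates 1 to 3, against 56.7, 53.1 and 51.4 CPM in NC replicates 1 to 3. Knockdown replicate 2 lay within the NC range. For MLX, edgeR gave 0.23 on the log2 scale (SE 0.15, 95% interval -0.11 to 0.57, adjusted p = 0.398). MLX (ENSG00000108788, chromosome 17, 42567068 to 42573239, plus strand) shares exon bases with PSMC3IP on the other strand, and reads of the 2 genes may not be separated. PSMC3IP averaged 22.7 ± 0.532 CPM in knockdown libraries and 21.2 ± 0.722 CPM in NC libraries.

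MLXIP, which encodes MondoA, had 113.6, 70.1 and 83.5 CPM in knockdown replicates 1 to 3, against 83.4, 69.1 and 77.5 CPM in NC replicates 1 to 3. Replicate 1 of the knockdown was the single library above the NC range by a wide margin. For MLXIP, edgeR gave 0.22 on the log2 scale (SE 0.20, 95% interval -0.23 to 0.66, adjusted p = 0.524), and it gave -0.0064 without CPT2 knockdown replicate 1. MLXIPL, which encodes ChREBP, had 73.4, 31.1 and 40.9 CPM in knockdown replicates 1 to 3, against 36.9, 28.6 and 38.2 CPM in NC replicates 1 to 3. Knockdown replicate 2 lay within the NC range, and replicate 1 stood far above it. For MLXIPL, edgeR gave 0.49 on the log2 scale (SE 0.30, 95% interval -0.19 to 1.17, adjusted p = 0.389), and it gave 0.048 without CPT2 knockdown replicate 1. The intervals of all 3 factors include both no difference and a log2 fold change above 0.5. MLXIP (ENSG00000175727) lies on chromosome 12 at 122078722 to 122147347 on the plus strand, and MLXIPL (ENSG00000009950) on chromosome 7 at 73593194 to 73624543 on the minus strand.

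The 5 genes differ in base composition, and the sign of each log2 fold change was that of the median of its GC decile. Transcript GC content was 43.9% for TXNIP and 43.4% for ARRDC4, which share a decile whose 1321 genes had a median of -0.19 on the log2 scale. It was 51.8% for MLX, 57.9% for MLXIP and 63.5% for MLXIPL, in deciles with medians of 0.0027, 0.26 and 0.48. With the trend of each library on GC content and length removed, TXNIP lay -0.38, -0.31 and -0.30 on the log2 scale from the NC mean in knockdown replicates 1, 2 and 3, against -0.03, -0.02 and 0.05 in NC replicates 1, 2 and 3. The 3 knockdown values thus came to within 0.1 of each other and stayed below every NC value. ARRDC4 then lay -0.66, -0.37 and -0.59 from the NC mean in knockdown replicates 1, 2 and 3, against -0.15, 0.03 and 0.12 in NC replicates 1, 2 and 3, also without overlap. The share of all genes so separated after removal of the trend is not given here. MLXIPL lay 0.25, -0.21 and -0.10 from the NC mean in the knockdown replicates, against 0.05, -0.11 and 0.06 in the NC replicates. In edgeR with GC and length offsets, the log2 fold changes were -0.32 (SE 0.09) for TXNIP, -0.54 (SE 0.18, adjusted p = 0.384) for ARRDC4, 0.099 for MLX, 0.11 for MLXIP and 0.0020 for MLXIPL. Of the 4 members other than TXNIP this fit called 0, against 0.0227% of the 13207 genes it tested. Leaving out CPT2 knockdown replicate 1 as well, they were -0.31, -0.49, 0.13, 0.017 and -0.17 in the same order.

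**Figure D3:**
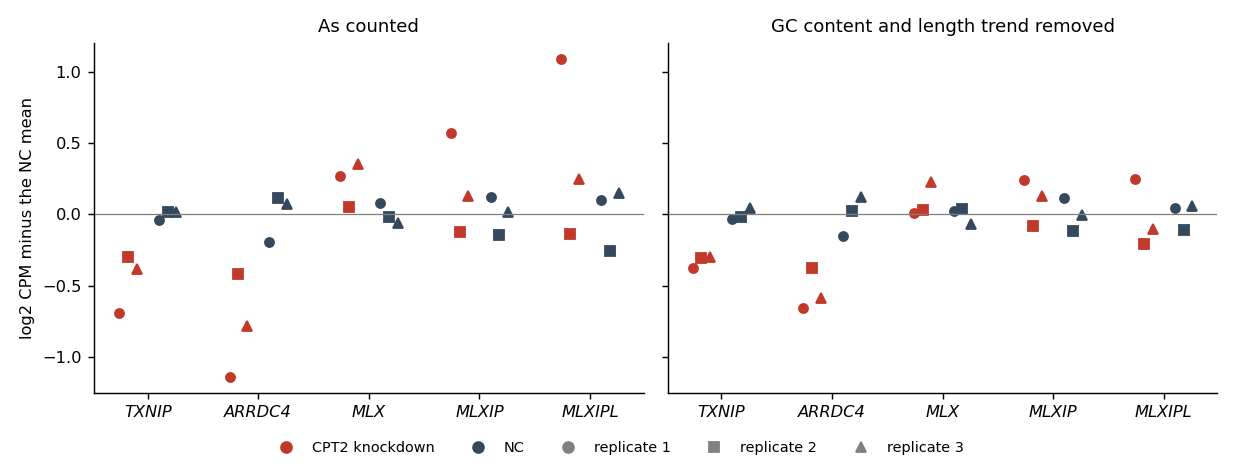
Log2 CPM of each gene minus its NC mean (y axis) in the 6 libraries, as counted (left) and with each library's loess trend on transcript GC content and length removed (right). Shapes give the replicate number. On the right the knockdown values of TXNIP lie between -0.38 and -0.30 and those of ARRDC4 between -0.66 and -0.37, below all NC values, whereas the groups overlap for the other genes.

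TXNIP and ARRDC4 were high and low in much the same libraries. The pair had a Pearson's r of 0.98 on log2 CPM over 6 libraries. After removal of the trend on GC content and length it was 0.96, as it was over the 5 libraries other than CPT2 knockdown replicate 1. These values share the difference between the groups and the depth and composition of each library, and are given as a description. Of 9164 genes with a symbol and a mean of at least 10 CPM, 42 had a higher r with TXNIP than ARRDC4 did. The ratio of TXNIP to ARRDC4 in FPKM was 55.6, 43.7 and 54.0 in knockdown replicates 1 to 3, against 44.6, 37.7 and 38.8 in NC replicates 1 to 3, so the groups overlapped. MLX, MLXIP and MLXIPL had r of -0.81, -0.76 and -0.80 with TXNIP, on values as counted. Of the 9164 genes, 7035, 6643 and 6933 had a higher r than these, so r as negative was common.

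**Figure D4:**
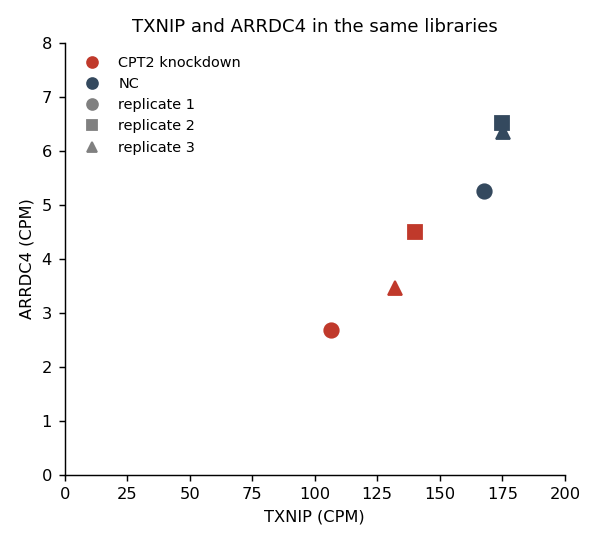
CPM of ARRDC4 (y axis) against CPM of TXNIP (x axis), 1 point per library, both axes from 0. CPT2 knockdown libraries lie at 107 to 140 CPM of TXNIP and 2.69 to 4.49 CPM of ARRDC4, and NC libraries at 168 to 175.1 and 5.26 to 6.51 CPM.

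Among the 5 genes with the highest r with TXNIP over the 6 libraries were KIAA0232 (0.998), PPM1A (0.993), S100PBP (0.993) and TDRD9 (0.993). For ARRDC4 they included POLR3B (0.995), DENND4A (0.994), PPM1A (0.991) and SLC23A2 (0.991). All of these had knockdown libraries below NC libraries, against 12.2% of all genes tested. TXNIP and ARRDC4 were separated in the same way, so this follows largely from the ranking. The ranking depended on the scale and on single libraries. After removal of the trend on GC content and length, 0 of the 5 remained among the 5 highest for TXNIP and 1 of the 5 for ARRDC4. Leaving out any 1 library kept 0 to 2 of them for either gene.

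The genes that share the tandem motif with TXNIP did not differ in one direction. All 16 windows belonged to genes in the deposited table, of which 13 were tested. Of the 12 other than TXNIP, 5 had a negative log2 fold change and edgeR called 0. The knockdown libraries lay below all NC libraries in 2 of them, against 12.2% of all genes. The 2 were GFPT1, the first enzyme of the hexosamine pathway, and P4HA1, a collagen prolyl hydroxylase subunit. GFPT1 averaged 105 ± 28.5 CPM in knockdown libraries and 158 ± 15.3 CPM in NC libraries (log2 fold change -0.59, SE 0.21, edgeR adjusted p = 0.338, n = 3 each). P4HA1 had a log2 fold change of -0.44 (SE 0.26). RCN3, a calcium-binding protein of the secretory pathway, had 0.80 (SE 0.20), and MTHFS had 0.35 (SE 0.18). Of the 12, RCN3 and MTHFS alone had all knockdown libraries above NC, against 12.2% of all genes. GFPT1, P4HA1, RCN3 and MTHFS were singled out once their values were known.

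The genes around the module were read as 7 lists with 86 tested members. Of these 86, edgeR called 0 at an adjusted p of 0.05, and the smallest adjusted p was 0.338. An unadjusted edgeR p under 0.05 was found for 16 of the 86, against 14.5% of all genes tested, and DESeq2 and limma-voom called 0. Over all genes tested the median log2 fold change was 0.0083.

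Other genes reported as targets of MondoA or ChREBP had a median of -0.14 on the log2 scale. Of the 22 listed, 16 were tested, 11 negative and 5 positive. Of the 16, 0 had an unadjusted edgeR p under 0.05, against 5.29% of all genes that were lower with one and 9.18% that were higher. The median was -0.079 without CPT2 knockdown replicate 1. The most abundant were SCD, the stearoyl-CoA desaturase, FASN, the fatty acid synthase, and ACLY, which makes cytosolic acetyl-CoA. SCD averaged 663 ± 34.6 CPM in knockdown libraries and 727 ± 38.4 CPM in NC libraries. FASN averaged 747 ± 122.7 CPM in knockdown libraries and 625 ± 27.5 CPM in NC libraries. ACLY averaged 192 ± 44.2 CPM in knockdown libraries and 253 ± 23.2 CPM in NC libraries (log2 fold change -0.40, SE 0.19). KLF10, a glucose-induced repressor, had 19.04, 57.7 and 38.2 CPM in knockdown replicates 1 to 3, against 43.6, 61.96 and 47.1 CPM in NC replicates 1 to 3, and was named after its values were seen. PKLR, FGF21 and GCKR had no counts. The knockdown libraries lay below all NC libraries in 2 of the 16 and above them in 0, against 12.2% of all genes in each direction, so the count below was near the background. With GC and length offsets the list median was -0.029, with 8 of 16 negative.

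Genes for glucose entry and phosphorylation, the step that makes the signal for MondoA, were split, with 9 positive and 8 negative of the 17 tested of 23 listed. Their median was 0.088 on the log2 scale, and 3 had an unadjusted edgeR p under 0.05, close to the 14.5% of all genes that did. The median was -0.02 without CPT2 knockdown replicate 1 and 0.0047 without replicate 3. It was 0.193 without CPT2 knockdown replicate 2 and 0.048 and 0.023 without NC replicates 1 and 2. SLC2A1, which encodes GLUT1, had 168, 172 and 181 CPM in knockdown replicates 1 to 3, against 189.5, 185 and 184 CPM in NC replicates 1 to 3. The groups did not overlap, but edgeR gave -0.099 on the log2 scale (SE 0.12, adjusted p = 0.636). HK2, the inducible hexokinase, had 44.2, 59.6 and 51.4 CPM in knockdown replicates 1 to 3, against 72.1, 80.2 and 72.4 CPM in NC replicates 1 to 3. The HK2 groups did not overlap, and edgeR gave -0.53 on the log2 scale (SE 0.16, adjusted p = 0.338). HK1 had 0.16 (SE 0.19). SLC2A1, HK2 and HK1 were named after their values were seen, whereas GPI and G6PC3 are among the 3 most abundant of the list. GPI, which converts glucose 6-phosphate to fructose 6-phosphate, had 0.26 (SE 0.14), and the glucose 6-phosphatase gene G6PC3 had 0.50 (SE 0.21). HK3, SLC2A2, SLC2A9, SLC2A10 and SLC5A1 had no counts. With GC and length offsets the list median was -0.089.

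Genes of the wider MYC, MAX and MLX network were evenly split, with 5 of 10 positive, 5 negative and a median of 0.0059 on the log2 scale. An unadjusted edgeR p under 0.05 was found for 4 of them, 2 in each direction, against 5.29% of all genes that were lower with one and 9.18% that were higher. The median was -0.14 without CPT2 knockdown replicate 2 and between 0.0022 and 0.074 with any other library left out. MYC, the growth-promoting partner of MAX, averaged 130 ± 32.2 CPM in knockdown libraries and 128 ± 15.4 CPM in NC libraries. MAX itself averaged 34.4 ± 3.10 CPM in knockdown libraries and 34.6 ± 4.02 CPM in NC libraries. MXD4, a repressor that can dimerise with MLX or MAX, averaged 74.99 ± 13.0 CPM in knockdown libraries and 56.8 ± 3.51 CPM in NC libraries (log2 fold change 0.40, SE 0.17). MNT, which also dimerises with MLX, had 0.49 (SE 0.18), and MXD1 had -0.50 (SE 0.22), both named after their values were seen. With GC and length offsets the list median was -0.096.

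The other arrestin genes gave a median of the opposite sign to TXNIP and ARRDC4. Of 5 tested, 4 had a positive log2 fold change and the median was 0.40, or 0.226 without CPT2 knockdown replicate 1. The knockdown libraries lay above all NC libraries in 2 of them, against 12.2% of all genes. The same 2 had an unadjusted edgeR p under 0.05, against 9.18% of all genes that were higher with one. ARRDC1 averaged 68.9 ± 19.5 CPM in knockdown libraries and 43.8 ± 5.72 CPM in NC libraries (log2 fold change 0.65, SE 0.22), without overlap. ARRB2, a beta-arrestin that ends signalling of G protein-coupled receptors, averaged 64.1 ± 16.0 CPM in knockdown libraries and 45.5 ± 3.55 CPM in NC libraries, and ARRDC2 had 0.22 (SE 0.21). ARRDC3, an alpha-arrestin named after its values were seen, had 16.3, 38.7 and 28.2 CPM in knockdown replicates 1 to 3, against 36.8, 47.6 and 41.2 CPM in NC replicates 1 to 3. With GC and length offsets the list median was 0.075, with 3 of 5 positive.

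Thioredoxin, the protein that TXNIP binds, and its reductases and peroxiredoxins gave a median of 0.17 on the log2 scale over 12 genes, 8 positive and 4 negative. Of these, 3 had an unadjusted edgeR p under 0.05, against 14.5% of all genes. The median was 0.047 without CPT2 knockdown replicate 3, 0.088 without NC replicate 2, and 0.277 and 0.259 without CPT2 knockdown replicate 2 and NC replicate 1. TXN, the cytosolic thioredoxin, averaged 299.8 ± 36.2 CPM in knockdown libraries and 279.9 ± 36.3 CPM in NC libraries, and its log2 fold change was 0.099 (SE 0.15). PRDX1 had 0.17 (SE 0.18) and PRDX5 0.51 (SE 0.31), both of which reduce peroxides. TXNRD1, which reduces thioredoxin and was named after its values were seen, averaged 518 ± 174 CPM in knockdown libraries and 775 ± 57.0 CPM in NC libraries (log2 fold change -0.58, SE 0.24). With GC and length offsets the list median was -0.12, with 8 of 12 negative.

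Genes that act on TXNIP protein or its promoter had both signs as well. The list of ubiquitin ligases, adaptors, kinases and partners gave a median of -0.25 on the log2 scale over 13 tested genes, 9 of them negative, and 1 had an unadjusted edgeR p under 0.05, against 14.5% of all genes. The median was -0.13 without CPT2 knockdown replicate 1 and -0.41 without replicate 2. ITCH, the ubiquitin ligase that targets TXNIP for degradation, had 18.2, 43.5 and 35.7 CPM in knockdown replicates 1 to 3, against 49.1, 62.3 and 53.5 CPM in NC replicates 1 to 3. The groups did not overlap, and edgeR gave ITCH -0.76 on the log2 scale (SE 0.29, adjusted p = 0.338). ITCH was named after its values were seen. DDIT4, which encodes the TXNIP-binding mTORC1 inhibitor REDD1, had 0.20 (SE 0.16), AKT1 0.23 (SE 0.15) and SKP2 -0.33 (SE 0.22). Of 13 transcription factor genes reported at the TXNIP promoter, 9 had a negative log2 fold change, with a median of -0.22. The 3 with an unadjusted edgeR p under 0.05 were all higher in knockdown libraries, as were 9.18% of all genes, against 5.29% lower. The median was -0.07 without CPT2 knockdown replicate 1 and -0.38 without replicate 2. USF2, an E-box-binding factor, averaged 178 ± 30.2 CPM in knockdown libraries and 118 ± 8.29 CPM in NC libraries (log2 fold change 0.59, SE 0.16, edgeR adjusted p = 0.338, n = 3 each), without overlap. HSF1, the heat shock factor, had 0.45 (SE 0.15), and HIF1A, the oxygen-regulated factor, had -0.62 (SE 0.36). The NF-Y subunit genes NFYA, NFYB and NFYC had -0.36, -0.20 and 0.26, and were named after their values were seen. With GC and length offsets the medians were -0.080 for the first list and -0.018 for the transcription factors.

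**Figure D5:**
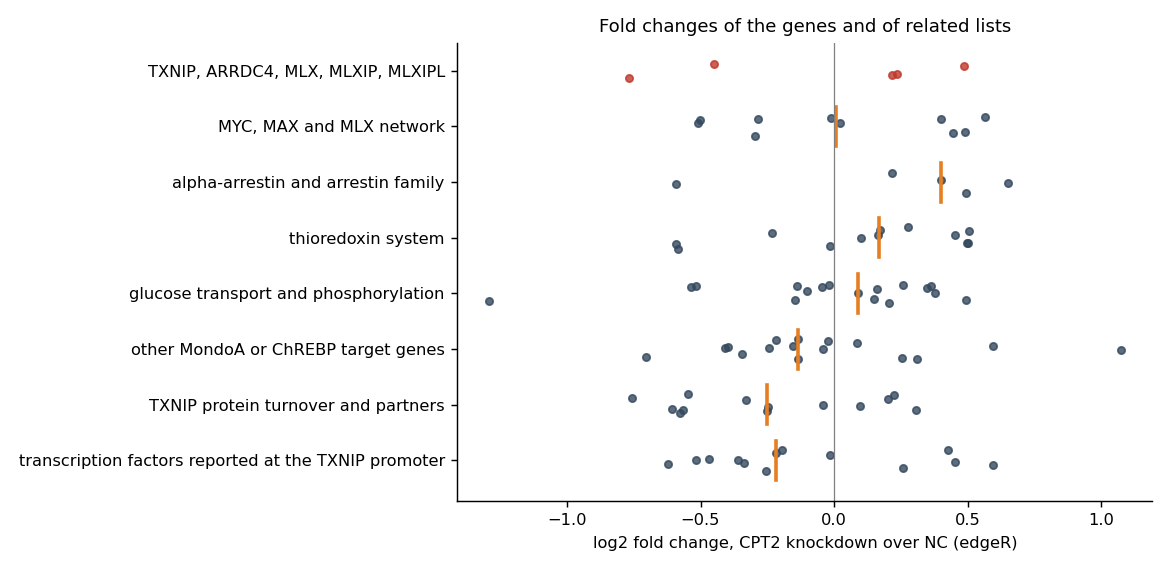
Log2 fold change, CPT2 knockdown over NC by edgeR (x axis), of the 5 genes (top row) and of the tested genes of each related list, 1 point per gene with vertical jitter. Orange bars give list medians, which run from -0.25 to 0.40, and no list gene passed an adjusted p of 0.05.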

How the data were processed

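The authors deposited raw read counts and FPKM per gene and library in 1 table, per the file headers, with the p-value, log2 fold change and call of their own comparison. Per the submitters' processing notes the build was GRCh38, and HISAT2, TopHat2, Bowtie2, StringTie, DESeq2 and edgeR were used, without stated roles or versions. How strand was handled is not stated in those notes. After removal of 17 lines without gene ID or values, 24154 genes remained, 4180 of them unnamed loci that held 5.32% to 7.18% of counts and stayed in library sizes.

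Tests on counts used edgeR 4.0.16 under R 4.3.3 (filterByExpr, TMM, quasi-likelihood F-test, robust, Benjamini-Hochberg over 15302 genes, threshold 0.05). CPM use TMM-scaled libraries, and errors are SD unless SE is named. Counting precision follows read number and is lowest for ARRDC4. Alternatives used DESeq2 1.42.0, limma 3.58.1 (voom, or trend on log2(FPKM + 1) and log2(FPKM + 0.1)), other scalings and filters, a replicate block, each library left out, and offsets from a loess (span 0.4) of each library on transcript GC content and length (GENCODE 29, longest transcript), the last without CPT2 knockdown replicate 1 added after seeing the data. Scripts were checked on simulated data. Likeness was ranked on log2 CPM (prior count 2). Promoter windows came from RefSeq, matched by symbol for all 5 genes.

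The members and lists were chosen with earlier results of these data known. Named were the members, CPT2, the 3 most abundant genes of each list by FPKM, called list members and the 5 genes most like TXNIP or ARRDC4. Other named genes are marked as chosen after their values were seen, or are markers, neighbours or genes without counts. Some genes that this rule names are not reported here.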

Additional observations from a re-analysis of the deposited data

How the results depend on the processing

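TXNIP had a negative log2 fold change in all 18 alternatives. The values ran from -0.59 on log2(FPKM + 0.1) to -0.31 with GC and length offsets without CPT2 knockdown replicate 1. With single libraries left out they ran from -0.54 to -0.35. All 18 reuse the libraries from which TXNIP was chosen. The shared sign thus follows largely from that choice and is given as a description. ARRDC4 was negative in all 17 alternatives that tested it, from -0.98 to -0.47, with an adjusted p of 0.0609 to 0.772; with single libraries left out it ran from -0.98 to -0.61, and the stricter filter on low counts dropped it. MLX stayed positive (0.095 to 0.31). MLXIP ran from -0.0064 to 0.36 with single libraries left out, and was negative without CPT2 knockdown replicate 1. MLXIPL turned to -0.014 with the replicate block and offsets and to -0.17 with offsets without CPT2 knockdown replicate 1; as counted without that library it was 0.048. The cause was not tested.

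The 2 genes called by edgeR, neither a member, became 17 with DESeq2, 1 with limma-voom, 1 with the stricter filter, 1 at an adjusted p of 0.01, 0 on either FPKM scale, 4 with offsets without CPT2 knockdown replicate 1 and 1 to 5 with single libraries left out. With the replicate block there were 633 calls, and 593 with block and offsets. No tested member was called under the block (ARRDC4 adjusted p = 0.0609, and 0.127 with offsets). Of the 86 tested list genes the block called 4, ARRDC1, ITCH, PRKAA1 and USF2, beside its 633 calls among all 15302 genes. Same-numbered libraries deviated together with r of 0.25, 0.36 and 0.0065 for replicates 1, 2 and 3. Each was the highest r of its knockdown library, and other combinations ran from -0.32 to 0.091. For knockdown replicate 3 the lead was slight, with 0.0042 for NC replicate 1. NC replicate 3 correlated best with knockdown replicate 1. The labels state no covariate, and the main fit did not take the numbers as pairs. On library size alone the median of all genes was -0.13, beside 0.095 for MLX and 0.064 for MLXIP. ARRDC4 is limited by depth, at 68 to 201 reads per library.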
